A study of Mus musculus with 6 samples.

Results

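Aquaporins are membrane channels that carry water, and in some cases glycerol, down an osmotic gradient. The members described here are the genes Aqp1, Aqp2, Aqp3, Aqp4, Aqp5, Aqp7, Aqp8, Aqp9 and Aqp11, taken on every array probe set (a group of probes read as 1 value) whose platform annotation gives 1 of these symbols. That gave 9 genes of the 18193 named on the array, and 18 probe sets of 45037. Total RNA of the testis at 12 weeks of age was hybridised to 6 Affymetrix arrays, 3 labelled SCARKO-jsd and 3 labelled jsd. Mice of both groups have the jsd (juvenile spermatogonial depletion) mutation of Utp14b, with which germ cells in the adult tubule mostly stop at the spermatogonium. In SCARKO-jsd mice a gene was in addition deleted conditionally from Sertoli cells, which nurse the germ line. The labels spell this genotype SCARKO-jsd, SCARCO-jsd and SCARO-jsd in different fields and give neither the Cre driver nor the strain. The comparison asks how testis transcripts change with that deletion where few germ cells are present. Values are log2 expression made by RMA, and differences are given as SCARKO-jsd minus jsd.

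Water follows ions into the seminiferous tubule as Sertoli cells secrete the fluid that carries sperm out of the testis. The channels Aqp1, Aqp2, Aqp4, Aqp5 and Aqp8 pass mainly water, whereas Aqp3, Aqp7 and Aqp9 are aquaglyceroporins that also pass glycerol. Aqp11 is a distant member that resides largely in the endoplasmic reticulum. In rodents Aqp8 was first found in testis and pancreas, Aqp7 is a protein of late spermatids and sperm, and Aqp9 has been located in Leydig cells of the rat.

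One array, SCARKO-jsd 2, was unlike the rest. Its highest correlation with any other array over the probe sets was 0.975, against 0.995 to 0.996 for the others, and 3' probes of beta-actin exceeded 5' probes by 1.66 log2 units in it, against 0.70 to 0.98 elsewhere. Of the 18 aquaporin probe sets, 10 had their highest value of all 6 arrays in SCARKO-jsd 2, as did 39.4% of all probe sets. The part that RNA quality plays in the results was not tested. Rhox5, the androgen-responsive homeobox gene of Sertoli cells, followed the labels, at 5.44, 6.11 and 5.84 in SCARKO-jsd 1, 2 and 3 and 10.26, 10.43 and 9.74 in jsd 1, 2 and 3.

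Aqp8 had by far the largest difference of the 9 genes and was lower in every SCARKO-jsd array. Its probe set 1417828_at gave 7.16, 7.47 and 6.87 log2 units in SCARKO-jsd 1, 2 and 3, against 9.55, 9.48 and 8.30 in jsd 1, 2 and 3. The groups did not overlap, and the lowest jsd array lay 0.83 log2 units above the highest SCARKO-jsd array. The jsd arrays differed among themselves by up to 1.25 log2 units, with jsd 3 the low array of that group, whereas the SCARKO-jsd arrays lay within 0.60. The means were 7.16 ± 0.30 in SCARKO-jsd and 9.11 ± 0.70 in jsd testes (SD of log2 values, n = 3 each), so that Aqp8 was 3.86-fold lower in SCARKO-jsd. Of 45037 probe sets, 12 had a more negative difference.

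The size of this difference was better determined than its call. The log2 difference of Aqp8 was -1.95 ± 0.35 (SE), with a 95% interval from -2.80 to -1.10. By limma over every probe set the unadjusted p was 0.00118 and the Benjamini-Hochberg adjusted p 0.112, outside the threshold of 0.05. With 1 probe set per gene and the dimmest 40% of genes left out, a setting that called 3.57% of genes, the same difference passed (limma, adjusted p = 0.0216). Without SCARKO-jsd 2, where 1.39% of probe sets were called, it also passed (limma, adjusted p = 0.0429). With the dimmest 40% of probe sets left out and 0.5% called, it did not (adjusted p = 0.0977), and over all alternatives the adjusted p ran from 0.0139 to 0.452 (without jsd 1). An exact permutation test of the 3 against 3 arrays gave p = 0.1 (two-sided), which is the smallest value that 20 rearrangements allow.

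**Figure D1:**
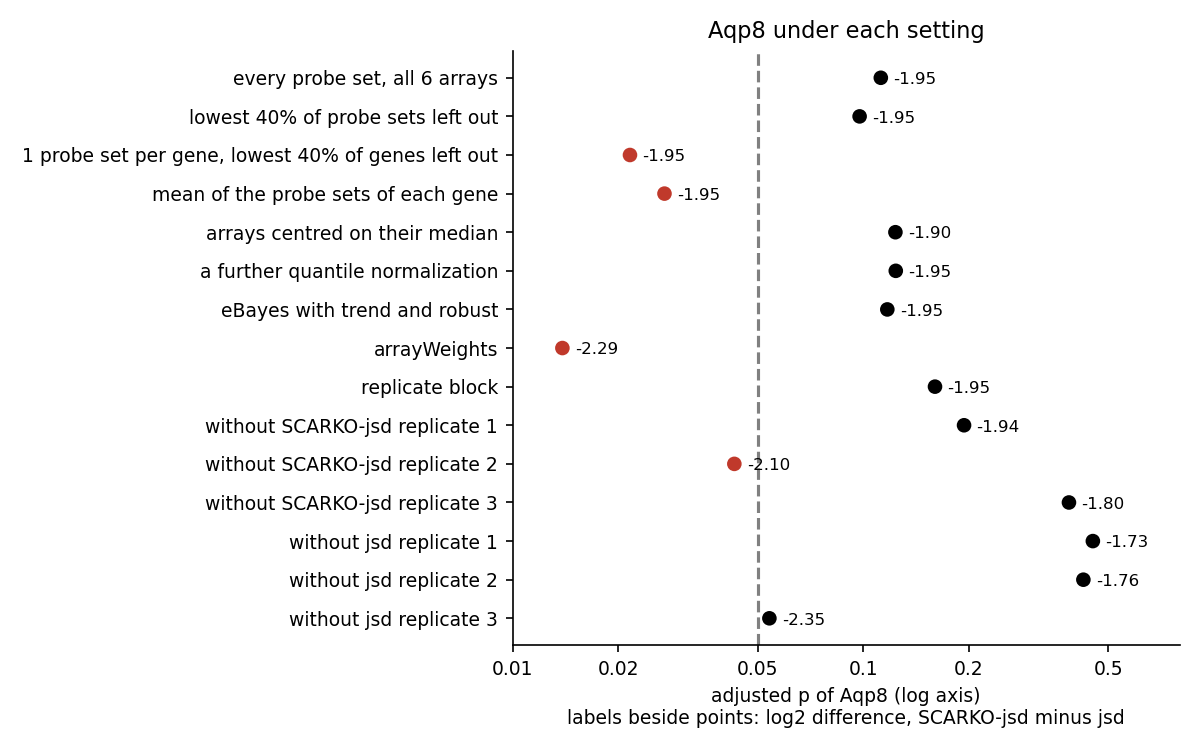
Adjusted p of Aqp8 (x axis, log scale, limma with Benjamini-Hochberg) under each setting (rows), with the log2 difference, SCARKO-jsd minus jsd, printed beside each point; the dashed line is the threshold of 0.05. The difference stayed between -2.35 and -1.73, while the adjusted p lay on both sides of the line.

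Whole testes were sampled, so fewer cells of a type and less RNA per cell cannot be told apart. Among 12 measured Sertoli cell markers 0 passed the test, and 3 had an unadjusted p under 0.05 by limma, a level reached by 10.3% of all probe sets. Those 3 did not go the same way, with log2 differences of -0.48 for Wt1 and 0.33 for both Amh and Inha, and the median over the list was -0.04. Their mean level lay between 10.94 and 11.13 in SCARKO-jsd arrays and between 10.97 and 11.11 in jsd arrays. Taken relative to that mean, Aqp8 was at -3.82, -3.67 and -4.08 log2 units in SCARKO-jsd 1, 2 and 3 and at -1.56, -1.54 and -2.67 in jsd 1, 2 and 3. The difference on this scale, chosen after the data were seen, was -1.93, about as large as the unscaled one (exact permutation p = 0.1, two-sided). The marker mean varied little between arrays next to the gap of Aqp8, so this scale could hardly give another result. Spermatogonium markers had a mean level of 9.16 to 9.50 in SCARKO-jsd arrays and 8.91 to 9.18 in jsd arrays. Of these 8 markers 0 passed and 6 had an unadjusted p under 0.05 by limma (10.3% of all probe sets), with a median log2 difference of 0.63 over the list. Gfra1, Uchl1, Dazl, Stra8 and Sall4 were at 0.59 to 0.99, Zbtb16 at -0.06, Kit at -0.03 and Id4 at -1.17. Without SCARKO-jsd 2 the median was 0.39, Uchl1 passed higher and Id4 passed lower. The part of these markers in the Aqp8 result was not tested.

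The sequences just before the gene starts of Aqp8, the member with the largest difference, and Aqp2, the member with the brightest probe set, are shown because they differ in short motifs of factors known in Sertoli cells. They are the 250 bases before each start (RefSeq, GRCm38.p6, both on the plus strand), chr7:123462044-123462293 for Aqp8 and chr15:99578806-99579055 for Aqp2. Capitals mark matches to any of 5 motifs, searched on both strands. They were AGAACA (a hexamer that steroid receptors bind), GATAA (bound by GATA factors), AACAAT (bound by SOX factors), AAGGTCA (bound by NR5A1) and TATAAA (the start-site box). TTATC is the second of these motifs on the other strand, and the matches did not overlap.
Aqp8: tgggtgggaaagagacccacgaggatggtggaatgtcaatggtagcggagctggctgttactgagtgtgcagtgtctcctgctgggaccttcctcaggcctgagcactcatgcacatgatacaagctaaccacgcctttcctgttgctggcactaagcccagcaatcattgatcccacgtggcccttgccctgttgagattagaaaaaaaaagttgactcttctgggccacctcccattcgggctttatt
Aqp2: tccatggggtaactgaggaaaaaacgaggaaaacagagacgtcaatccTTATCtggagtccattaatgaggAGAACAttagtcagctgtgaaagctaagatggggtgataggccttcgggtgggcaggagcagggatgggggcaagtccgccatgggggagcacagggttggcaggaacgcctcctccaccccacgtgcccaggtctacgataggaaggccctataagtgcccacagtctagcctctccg

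Aqp8 held 0 matches to these 5 motifs in the window, whereas Aqp2 held AGAACA at position -179 and TTATC at position -202, counted from the gene start. The hexamer occurred in 16.1% of the 32851 windows of the same length, GATAA in 22.6%, AACAAT in 9.42%, TATAAA in 12.4% and AAGGTCA in 4.08%. Among the other members with a window in the table, Aqp1, Aqp5 and Aqp11 also held 0 matches. Aqp7 and Aqp9 each have 2 windows, with the hexamer in 1 of them (at positions -173 and -138) and a GATA factor motif in the other (at -131 and -238). Aqp3, whose window held TATAAA at position -29, had no hexamer. These matches describe letters and show no binding. Holding 0 matches does not set Aqp8 apart from Aqp1, Aqp5 and Aqp11, and the share of all windows with 0 matches was not counted.

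Over the family, 0 of the 18 probe sets passed the test by limma over every probe set, where 0.28% of all probe sets were called (0.124% higher and 0.155% lower in SCARKO-jsd). At an unadjusted p under 0.05 there were 2, the Aqp8 probe set and 1 of the 3 Aqp11 probe sets, where 10.3% of all probe sets reached that level. The groups did not overlap for the same 2 probe sets, against 16.9% of all probe sets. The median log2 difference was 0.05 over the members and 0.01 over all probe sets, and 15 of the 18 differences were smaller than 0.25 in size. Apart from Aqp8, the differences ran from -0.12 to 0.52, and all 17 of those intervals lay within -1 to 1. The brightness of 9 probe sets, from Aqp1, Aqp2, Aqp3, Aqp5, Aqp8, Aqp9 and Aqp11, was above that of the dimmest 40% of probe sets (mean log2 expression up to 5.69). All probe sets of Aqp4 and Aqp7 were dim.

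**Figure D2:**
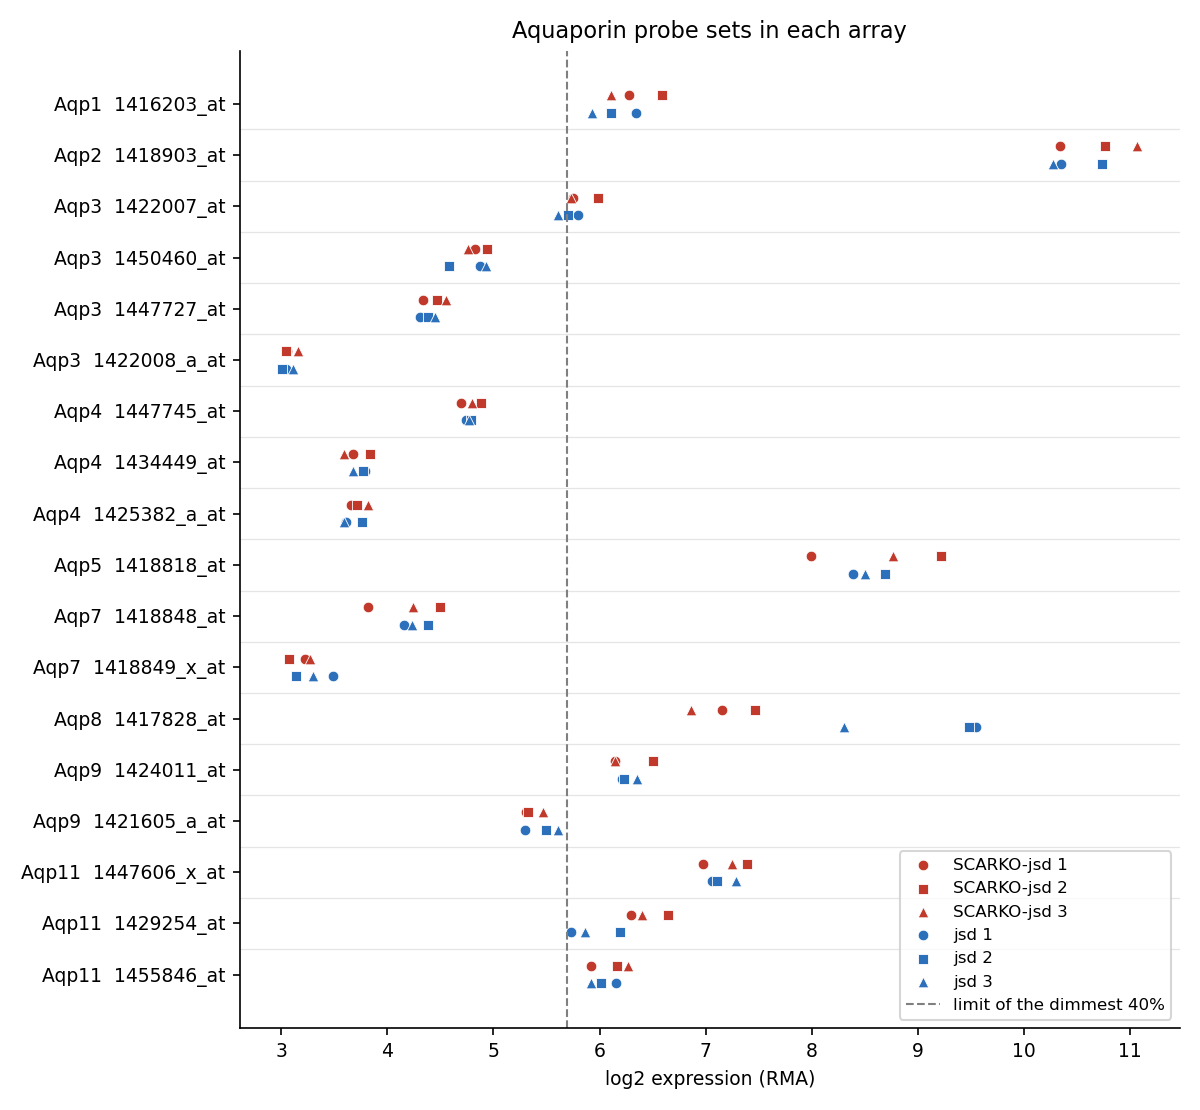
Log2 expression (x axis) of each aquaporin probe set (rows) in SCARKO-jsd arrays (red, upper points of a row) and jsd arrays (blue, lower points), with the dashed line at the limit of the dimmest 40% of probe sets (5.69). Aqp8 is the row with a wide gap between the groups, its SCARKO-jsd arrays at 6.87 to 7.47 and its jsd arrays at 8.30 to 9.55.

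**Figure D3:**
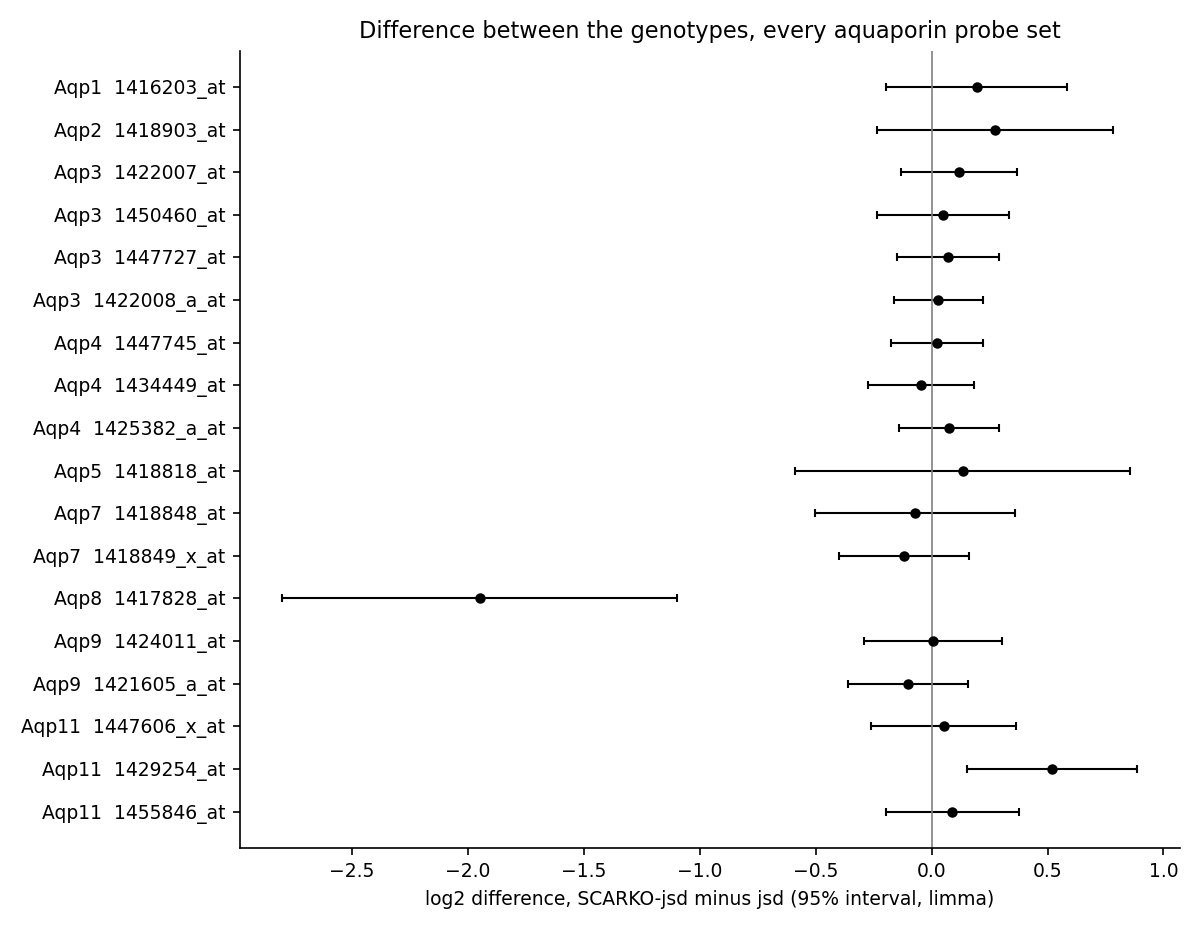
Log2 difference, SCARKO-jsd minus jsd (x axis, limma estimate with its 95% interval), of each aquaporin probe set (rows). The interval of Aqp8 ran from -2.80 to -1.10 and that of the Aqp11 probe set 1429254_at from 0.15 to 0.89, and the other 16 intervals included 0.

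Among the other water channels, Aqp2, the vasopressin-regulated channel of the kidney collecting duct, had the brightest signal, above 93.6% of all probe sets. Its only probe set, 1418903_at, gave 10.34, 10.77 and 11.07 in SCARKO-jsd 1, 2 and 3, against 10.35, 10.73 and 10.28 in jsd 1, 2 and 3 (log2 expression). The groups overlapped, with SCARKO-jsd 3 the highest array and SCARKO-jsd 1 level with jsd 1. The log2 difference was 0.27 ± 0.21 (SE, 95% interval -0.24 to 0.78, limma adjusted p = 0.730). Probe sets differ in affinity, so this brightness is not an amount that can be set against another gene's.

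Aqp5, a channel of salivary, tear and airway glands, was also well above the dim limit on its only probe set, 1418818_at. It stood at 7.99, 9.22 and 8.77 in SCARKO-jsd 1, 2 and 3, and at 8.39, 8.69 and 8.50 in jsd 1, 2 and 3 (log2 expression). The knockout arrays lay on both sides of the jsd arrays and held both the lowest and the highest value. Their SD was 0.62, against 0.16 in jsd testes (n = 3 each), and the log2 difference was 0.13 ± 0.30 (SE, 95% interval -0.59 to 0.86).

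Aqp1, the channel of red cells, vascular endothelium and the efferent ducts, lay close to the dim limit. Its probe set 1416203_at gave 6.27, 6.59 and 6.11 in SCARKO-jsd 1, 2 and 3, against 6.35, 6.11 and 5.93 in jsd 1, 2 and 3 (log2 expression), and the groups overlapped. The log2 difference was 0.20 ± 0.16 (SE, 95% interval -0.20 to 0.59, limma adjusted p = 0.749). The mean level of 8 endothelial markers was 7.13 to 7.72 in SCARKO-jsd arrays and 7.02 to 7.38 in jsd arrays. Of these 0 passed the test and 2 had an unadjusted p under 0.05 by limma (10.3% of all probe sets), Kdr at -0.79 and Vwf at 0.53. Without SCARKO-jsd 2 Kdr passed, lower, and the list's median log2 difference was 0.01, against 0.22 with it. All 6 measured markers of rete testis, efferent duct and epididymis were dim, with mean levels of 4.62 to 4.73 in SCARKO-jsd arrays and 4.59 to 4.61 in jsd arrays. Of 5 red cell markers 4 were dim, with log2 differences of 0.05 for Hba-a1, 0.11 for Slc4a1, -0.08 for Epb42 and -0.05 for Rhag. The other, Alas2, the heme synthesis enzyme, fell by 1.21 ± 0.10 log2 units (SE, limma adjusted p = 0.0162). That call ended without any 1 array other than SCARKO-jsd 2 (adjusted p up to 0.151).

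Aqp4, the water channel of astrocyte end-feet, was dim on all 3 of its probe sets. The brightest, 1447745_at, was at 4.70, 4.88 and 4.80 in SCARKO-jsd 1, 2 and 3, and at 4.74, 4.79 and 4.77 in jsd 1, 2 and 3 (log2 expression). The 3 log2 differences were -0.05, 0.02 and 0.08, and their intervals all lay between -0.27 and 0.29. A signal this dim can hide a difference between the genotypes.

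The aquaglyceroporins showed no difference past the threshold. Aqp3, a channel of skin and of the basal side of collecting duct cells, has 4 probe sets, whose means over the 6 arrays ran from 3.07 to 5.76 log2 units. The brightest, 1422007_at, gave 5.75, 5.98 and 5.73 in SCARKO-jsd 1, 2 and 3, against 5.80, 5.70 and 5.61 in jsd 1, 2 and 3. These groups overlapped, and SCARKO-jsd 2 was the highest array. The 4 log2 differences of Aqp3 were 0.03, 0.05, 0.07 and 0.12, each with an interval that included 0.

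Aqp9, which passes glycerol and urea in liver, had probe set 1424011_at at 6.14, 6.51 and 6.15 in SCARKO-jsd 1, 2 and 3, and at 6.21, 6.23 and 6.35 in jsd 1, 2 and 3 (log2 expression). Only SCARKO-jsd 2 lay above the jsd arrays, and the other SCARKO-jsd arrays lay below them. The log2 difference was 0.004 ± 0.12 (SE, 95% interval -0.29 to 0.30), and the dim probe set 1421605_a_at gave -0.10 (interval -0.36 to 0.16). Of 5 measured Leydig cell markers 0 passed the test, as 0 did at an unadjusted p under 0.05 by limma. Their mean level was 13.22 to 13.46 in SCARKO-jsd arrays and 13.16 to 13.39 in jsd arrays.

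Aqp7, the glycerol channel of fat cells and sperm, was dim on both probe sets. Probe set 1418848_at gave 3.82, 4.50 and 4.24 in SCARKO-jsd 1, 2 and 3, against 4.16, 4.38 and 4.23 in jsd 1, 2 and 3 (log2 expression). The SCARKO-jsd arrays spanned the jsd arrays, and the log2 differences of the 2 probe sets were -0.07 and -0.12 (intervals -0.50 to 0.36 and -0.40 to 0.16). Of 10 spermatid markers 7 were dim and 0 passed the test (0 at an unadjusted p under 0.05 by limma), with mean levels of 5.38 to 5.70 in SCARKO-jsd arrays and 5.36 to 5.52 in jsd arrays. Of 5 adipocyte markers 3 were dim and 0 passed, likewise with 0 at an unadjusted p under 0.05.

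The 3 probe sets of Aqp11, whose loss gives mice cystic kidneys, all had higher means in SCARKO-jsd, by unlike amounts. Probe set 1429254_at was at 6.29, 6.64 and 6.40 in SCARKO-jsd 1, 2 and 3, and at 5.73, 6.19 and 5.86 in jsd 1, 2 and 3 (log2 expression). Every SCARKO-jsd array was above every jsd array, by a log2 difference of 0.52 ± 0.15 (SE, 95% interval 0.15 to 0.89), 1.43-fold, which did not pass over every probe set (limma, unadjusted p = 0.0127, adjusted p = 0.300). The brighter probe set 1447606_x_at gave 6.98, 7.39 and 7.24 in SCARKO-jsd 1, 2 and 3, against 7.06, 7.10 and 7.29 in jsd 1, 2 and 3, where the groups overlapped. Its log2 difference was 0.05 ± 0.13 (SE, 95% interval -0.26 to 0.36), and that of 1455846_at was 0.09 ± 0.12 (interval -0.20 to 0.38). Both intervals overlapped that of 1429254_at.

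The gap between Aqp11 probe sets within an array was examined after their values were seen. 1429254_at minus 1447606_x_at was -0.69, -0.75 and -0.84 log2 units in SCARKO-jsd 1, 2 and 3 and -1.33, -0.91 and -1.43 in jsd 1, 2 and 3. These gaps did not overlap (exact permutation p = 0.1, two-sided, the smallest that 3 against 3 arrays allow). Those against 1455846_at did overlap (exact permutation p = 0.2). The groups of 1429254_at were already known to be apart, which favours gaps that do not overlap. In Affymetrix naming, _x_at marks a set whose probes can also match other transcripts, so the brightest Aqp11 signal may not be Aqp11 alone. That suffix is not on 1455846_at, whose log2 difference was 0.09, against 0.05 for 1447606_x_at. Why 1429254_at had a larger difference than the other Aqp11 probe sets was not tested.

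Some members sit side by side in the genome. On chromosome 15 Aqp2 is followed by Aqp5 and then Aqp6, and on chromosome 4 Aqp7 is followed by Aqp3, with no other protein-coding gene of the RefSeq table (GRCm38.p6) in between. Next to Aqp8 on chromosome 7 lie Lcmt1 and Arhgap17 on one side and Zkscan2 and Hs3st4 on the other. Lcmt1, a methyltransferase of protein phosphatase subunits, had a log2 difference of 0.06 (95% interval -0.16 to 0.28), and Arhgap17, a GTPase regulator, of -0.15 (interval -0.40 to 0.10). Hs3st4, a heparan sulfate sulfotransferase, was dim, with a difference of 0.06 (interval -0.22 to 0.34), and Zkscan2 was not measured by a probe set of its own name. The interval of Aqp8 lay below those of its 3 measured neighbours.

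The remaining family members, Aqp6, Aqp12 and the lens channel gene Mip, did not pass the test on any of their 7 probe sets. Aqp12 was at 7.81, 8.02 and 7.90 in SCARKO-jsd 1, 2 and 3, against 7.88, 7.89 and 7.88 in jsd 1, 2 and 3, a log2 difference of 0.03 ± 0.08 (SE). The probe sets of Aqp6, an anion-permeable channel of kidney, were all dim, with log2 differences from -0.02 to 0.28. For 2 of these 4, at 0.22 and 0.15, every SCARKO-jsd array was above every jsd array. The second did so narrowly, with SCARKO-jsd 3 at 3.673 and jsd 3 at 3.666. Groups did not overlap for 16.9% of all probe sets. Mip gave 0.02 and -0.31 on its 2 dim probe sets, of which the lower one had groups that did not overlap, an unadjusted p of 0.0182 and an adjusted p of 0.342 by limma.

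The profile of Aqp8 over the arrays was compared with those of 10915 other genes above the dim limit for genes (6.64), each taken relative to its own jsd mean. Likeness is the root mean square difference over the 6 arrays in log2 units, and for Aqp8 against a flat profile it was 1.45. The 5 closest genes were Dixdc1 (0.20), a regulator of Wnt signalling, Car7 (0.23), a carbonic anhydrase, Cdo1 (0.31), which oxidises cysteine, Myo5b (0.38), a motor of membrane traffic, and Ank (0.39), a pyrophosphate transporter. All 5 had SCARKO-jsd and jsd arrays that did not overlap, as had 16.9% of all probe sets. Choosing genes by likeness to Aqp8, whose groups were apart, favours this. Dixdc1 fell by 1.98, Cdo1 fell by 2.30 and Myo5b fell by 1.74 log2 units (limma adjusted p = 0.0488, 0.0488 and 0.0414). Averaged over a gene's probe sets, the differences were -0.87 for Dixdc1, -1.29 for Car7 and -1.12 for Myo5b.

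In all 5 genes, as in Aqp8 and Rhox5, jsd 3 was the lowest jsd array, and Car7 had the widest jsd spread of the 5 (SD 0.96). The choice by likeness to Aqp8, whose jsd 3 was low, favours a low jsd 3 in these 5. In Myo5b the margin was narrow, with jsd 3 at 8.877 and jsd 2 at 8.881. Car7 was at 5.96, 6.53 and 6.27 in SCARKO-jsd 1, 2 and 3, and at 8.87, 8.59 and 7.09 in jsd 1, 2 and 3 (log2 expression). Its log2 difference was -1.93 ± 0.46 (SE, limma adjusted p = 0.207), and that of Ank was -1.45 ± 0.30 (adjusted p = 0.157). The calls of Dixdc1, Cdo1 and Myo5b ended with arrays centred on their median (0.0551, 0.0548 and 0.0548) and without any 1 array other than SCARKO-jsd 2 (adjusted p up to 0.265, 0.263 and 0.217). Likeness chosen in this way includes the genotype difference itself and describes these 6 arrays.

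**Figure D4:**
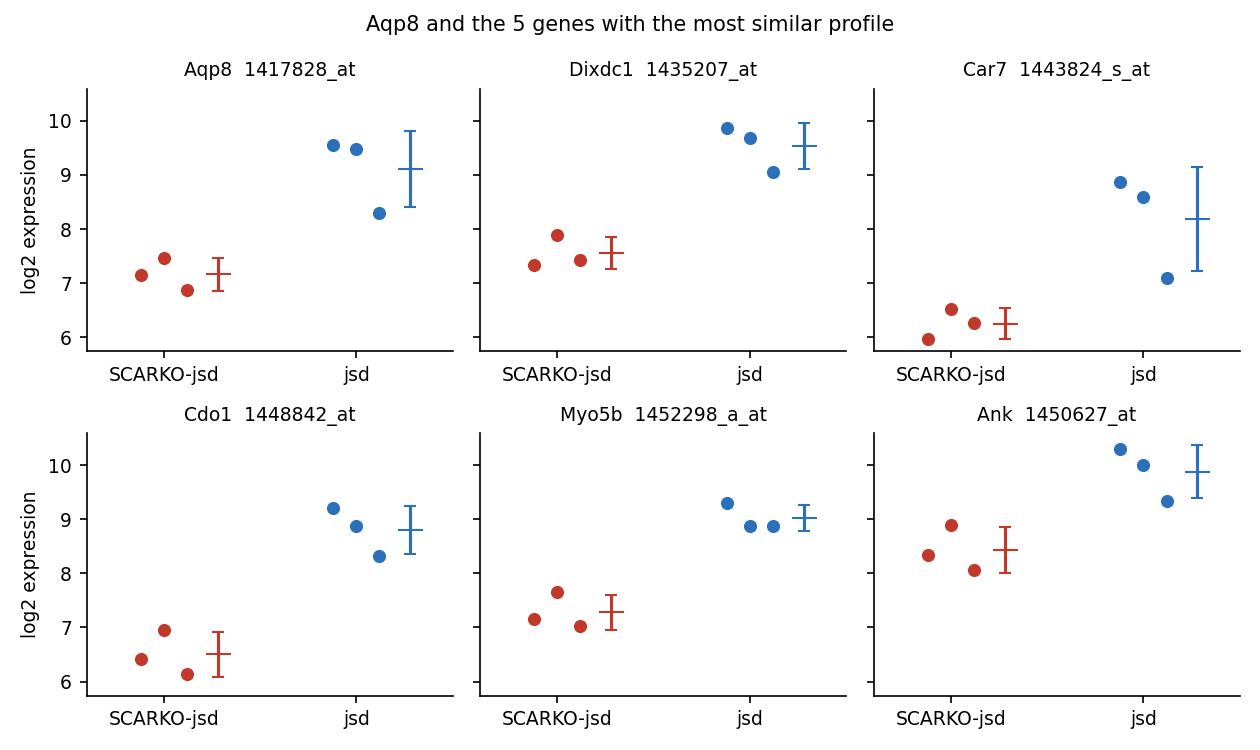
Log2 expression (y axis) of Aqp8 and the 5 genes with the most similar profile in SCARKO-jsd arrays (red, left) and jsd arrays (blue, right), each point an array in the order 1, 2 and 3, with the mean and SD beside them (n = 3). In jsd 3 Aqp8 was at 8.30 and Car7 at 7.09, the low value of each jsd group.

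Genes that work around the aquaporins were read on the brightest probe set of each gene, where 0.484% of 18193 genes passed the test. In glycerol and urea handling 0 of 10 measured genes passed, and the median log2 difference was 0.04. At an unadjusted p under 0.05 by limma there were 2 genes, a level reached by 10.3% of all probe sets. Those were Gpd1, the cytosolic glycerol-3-phosphate dehydrogenase (-0.74 ± 0.28 SE, adjusted p = 0.425), and Mgll, the lipase that frees glycerol from monoglycerides (0.51 ± 0.21, adjusted p = 0.472), which was at 0.27 without SCARKO-jsd 3. The groups of Gpd1 overlapped, with SCARKO-jsd 1 at 10.62 and jsd 1 at 10.43. Lipe, the hormone-sensitive lipase, was at 0.12.

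In ion transport of fluid secretion 0 of 15 genes passed, and the median log2 difference was 0.02. Only 1 gene had an unadjusted p under 0.05 by limma (10.3% of all probe sets). That gene was Atp1b2, a subunit of the sodium pump, at 11.41 ± 0.09 in SCARKO-jsd and 11.69 ± 0.15 in jsd testes (log2 expression, SD, n = 3), a difference of -0.27 ± 0.11 (SE, limma adjusted p = 0.445). With its probe sets averaged the difference was -0.54 (0.268). Atp1b1, another sodium pump subunit, was at -0.18 (-0.09 without jsd 1). Cftr, a chloride channel, was at 0.18 on a dim probe set and at 0.02 with its probe sets averaged.

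Of 14 genes of the osmotic and volume response 0 passed, while 5 had an unadjusted p under 0.05 by limma, a level that 10.3% of all probe sets reached, and the median log2 difference was -0.02. The smallest p values were those of Slc5a3, which imports myo-inositol as an osmolyte (-0.56 ± 0.11 SE, limma adjusted p = 0.135), and Lrrc8c, a subunit of the volume-regulated anion channel (-0.56 ± 0.12, adjusted p = 0.166). Stk39, a kinase that switches on sodium-potassium-chloride cotransport, was at -0.44 ± 0.15 (adjusted p = 0.375). All 3 were lower in every SCARKO-jsd array than in every jsd array. Of the other genes at an unadjusted p under 0.05 by limma, Wnk1 was at -0.26, also lower in every SCARKO-jsd array. Slc38a2 was at 0.27 and higher in every SCARKO-jsd array. The groups did not overlap for 16.9% of all probe sets. Without SCARKO-jsd 2, Lrrc8c and Stk39 passed (limma adjusted p = 0.0342 and 0.0404), and with 1 probe set per gene and no dim genes Slc5a3 and Lrrc8c passed (0.0369 and 0.0479). With probe sets averaged by gene 0 of the 3 passed, and the difference of Lrrc8c was -0.25 (limma adjusted p = 0.576). The adjusted p was then 0.291 for Slc5a3 and 0.0763 for Stk39.

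Among 12 genes of aquaporin anchoring and trafficking 0 passed, and the median log2 difference was 0.02. Only 1 gene had an unadjusted p under 0.05 by limma (10.3% of all probe sets). Prkar2a, a regulatory subunit of the kinase through which vasopressin moves Aqp2, was at 0.63 ± 0.13 (SE, limma adjusted p = 0.154). It passed without SCARKO-jsd 2 (0.0223) and with 1 probe set per gene and no dim genes (0.0403), but not with its probe sets averaged, where the difference was 0.41 (0.0722). Akap7, an anchor of that kinase, was at -0.25 and Sntb1, a syntrophin, at 0.17 (-0.16 and 0.08 with probe sets averaged).

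The androgen-dependent genes of Sertoli cells, a list drawn up with their fall in these data already known, were mostly lower. Of 11 measured genes 3 fell, 0 rose and 8 did not pass by limma, all 11 differences lay below 0, and the median was -0.50. Those of Tubb3 (-0.04) and Cldn3 (-0.02) were close to no difference. The groups of Tubb3, Cldn3 and Gpd1 overlapped. Rhox5 fell by 4.35 ± 0.23 log2 units (SE, limma adjusted p = 0.00563). Drd4, a dopamine receptor, fell by 2.25 ± 0.08 (0.00258) and Tsx, an X-linked gene of Sertoli cells, fell by 1.54 ± 0.11 (0.0125). Gpd1 is in this list as well as among the glycerol genes. The difference of Aqp8 lay between those of Drd4 and Tsx, and its SE was 0.35. Without jsd 1 all 3 calls ended (limma adjusted p = 0.0621, 0.0621 and 0.110). That of Rhox5 also ended without jsd 2 (0.0687), and that of Tsx without SCARKO-jsd 3, jsd 2 or jsd 3 (0.103, 0.109 and 0.0535). Without SCARKO-jsd 2, 5 genes of the list fell.

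**Figure D5:**
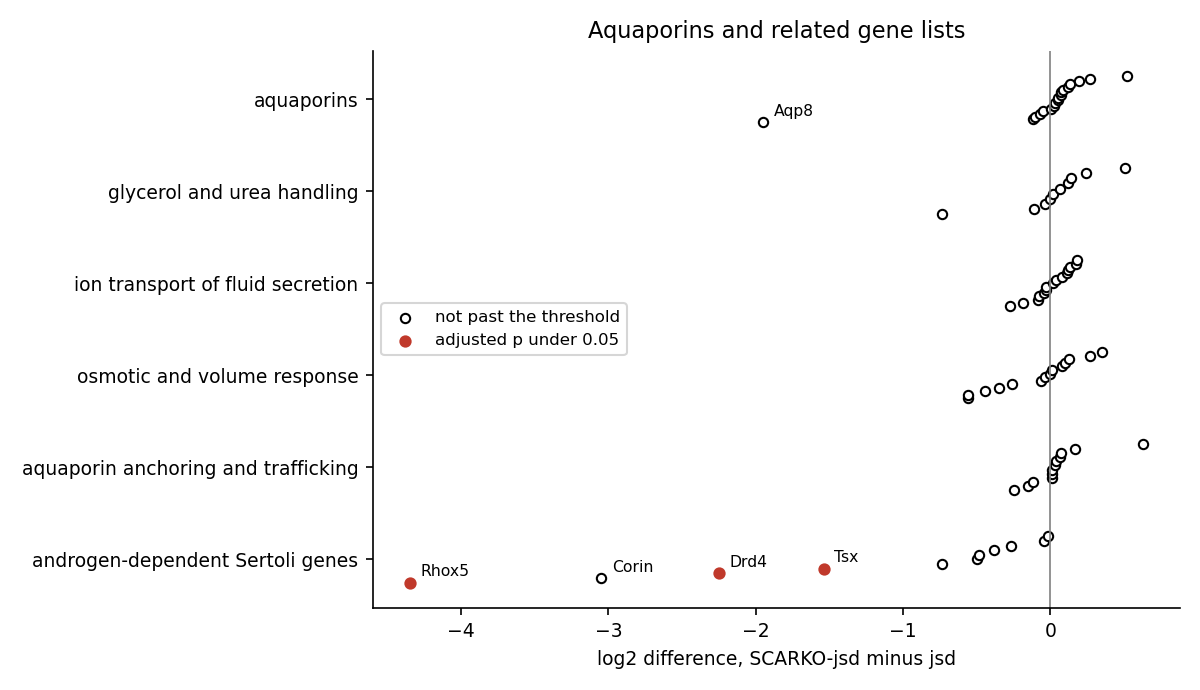
Log2 difference, SCARKO-jsd minus jsd (x axis), of the aquaporin probe sets and of each gene of 5 lists (rows), filled red where the adjusted p was under 0.05, with genes past 1 log2 unit named. Among the aquaporins Aqp8 stood alone at -1.95, and the called genes were Rhox5, Drd4 and Tsx.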

How the data were processed

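The arrays, 1 per sample, came from RNeasy RNA made into biotin-labelled cRNA, per the labels' protocols. The authors summarised probes by RMA to a log2 value for each probe set and used affy, per the submitters' processing notes, without a version. RMA equalises the distributions of probe values between arrays, so a shift of most transcripts cannot be seen. The medians of the summarised values still differed, at 6.26 in SCARKO-jsd 2 and 6.40 to 6.41 in the other arrays. Of 45101 probe sets, 64 controls were left out. The platform table from GEO, possibly outdated, gave 1 symbol for 34945, several for 932 and none for 9160. Symbols were compared with RefSeq through the gene ID for 34741 probe sets, and 0 changed.

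All probe sets entered lmFit and eBayes of limma 3.58.1 in R 4.3.3, on a model of genotype alone, with two-sided p-values and Benjamini-Hochberg adjustment over all 45037 and a threshold of 0.05. No filter was applied, so that each aquaporin probe set has a value. Other genes were read on their brightest probe set. The test was checked on simulated data. The named genes are all members, the other aquaporins, the called genes and 3 smallest p of each pathway list, called markers and the 5 genes most like Aqp8. Members and lists were chosen with earlier results of these data known. Alternatives were filters, gene-level values, scaling, variance models, array weights, a replicate block and leaving out each array. Array weights used the gene-by-gene method because the default method did not converge. Since no label ties an RNA to its mouse, the p-values cover only the spread between these samples, which may be technical. The number of arrays limits the precision. The gene removed by the conditional knockout is not reported here. Plots used Python 3.11.15 and matplotlib 3.10.9.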

Additional observations from a re-analysis of the deposited data

How the results depend on the processing

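The count of called probe sets, 126 over every probe set (4642 at an unadjusted p under 0.05), depended on the setting. It was 390 with 1 probe set per gene and the dimmest genes left out, 346 with probe sets averaged by gene, 63 with arrays centred on their median, 215 with trend and robust eBayes and 1269 with array weights, which ran from 0.241 for SCARKO-jsd 2 to 2.38 for SCARKO-jsd 3. It was 15 at an adjusted p under 0.01 and 372 under 0.1. With arrays left out it ranged from 0 to 627, being 0 without jsd 1, where 2959 probe sets had an unadjusted p under 0.05, and 627 without SCARKO-jsd 2. It was 19 and 14 without SCARKO-jsd 1 and 3, and 3 and 25 without jsd 2 and 3. The aquaporin count, 0, was 1 with 1 probe set per gene, with probe sets averaged and under array weights, and 0 to 1 with arrays left out, in each case through Aqp8. The Aqp8 difference of -1.95 passed with 1 probe set per gene and with probe sets averaged, was -2.29 with array weights and ranged from -2.35 to -1.73 with arrays left out. Of 206 values of the other 17 aquaporin probe sets under these alternatives, 0 were called and 12, of 8 probe sets with differences up to 0.13 in size, had another sign. Same-numbered arrays are not pairs by the labels, and their deviations correlated at -0.267, 0.237 and 0.35. With the replicate block 0 probe sets were called (4141 at an unadjusted p under 0.05) and Aqp8 had an adjusted p of 0.160. The 9 dim aquaporin probe sets carry too little signal to show a small difference.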
